A study of Mus musculus with 8 samples.

Results

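The cytosolic ribosomal protein genes were followed in the brown adipose tissue (BAT) of mice with and without adipose triglyceride lipase (ATGL) in their brown adipocytes. Members were chosen by name alone: protein-coding genes whose symbol begins with Rpl, Rps or Rplp followed by a number, with paralog letters allowed. The rule found 82 genes among 31053 in the count table, of which 51 belong to the large subunit and 31 to the small subunit. A further 6 annotated genes with matching symbols are not protein coding and had no row. Bulk RNA-seq compared 4 WT mice with 4 ATGLKO mice, named Ucp1Δ/Δ by the study. All were C57BL6/J males, and the labels give an age of 10 weeks, while the study's description of the profiled animals gives a younger age. In the ATGLKO mice a floxed Pnpla2 gene, which encodes ATGL, is removed by a Cre recombinase under the Ucp1 promoter, so the deletion is limited to cells that switch on Ucp1. The labels name the tissue as BAT and also carry a stromal vascular fraction tag.

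The ribosome is built from a small subunit, which holds the mRNA and reads its codons, and a large subunit, which joins amino acids and carries the tunnel through which the new protein leaves. Each ribosomal protein is normally present once per ribosome, apart from the stalk proteins, and the genes are expressed together in nearly every cell. Their mRNAs begin with a C and a run of pyrimidines, the 5′ terminal oligopyrimidine (TOP) motif, through which mTOR and LARP1 control their translation. A few members have paralogs with narrower expression: Rpl3l belongs to heart and skeletal muscle, and Rpl10l and Rpl39l are best known from the male germ line.

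Start sites from RefSeq (GRCm38.p6) were at hand for 62 of the 82 genes. The 30-base windows of 8 genes are shown, 5′ to 3′ on the coding strand and centred on the annotated start. They are examples with and without the tract, which is a feature of this gene family. Among other genes discussed below, Rpl27a, Rps26 and Rpl12 carry it within 5 bases of the start, and Rpl13 and Rps12 do not. Capitals mark a C followed by at least 5 further C or T bases that opens within 5 bases of the start. The first 5 carry such a tract: Rpl15 (chr14:18270972-18271001, minus strand), Rpl28 (chr7:4792950-4792979, plus), Rps6 (chr4:86857353-86857382, minus), Rps18 (chr17:33955651-33955680, minus) and Rps27 (chr3:90213634-90213663, minus). The last 3 carry none: Rpl10 (chrX:74270801-74270830, plus), Rpl3l (chr17:24727811-24727840, plus) and Rps27l (chr9:66946071-66946100, plus).
Rpl15: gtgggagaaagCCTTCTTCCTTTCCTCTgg
Rpl28: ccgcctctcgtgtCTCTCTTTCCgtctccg
Rps6: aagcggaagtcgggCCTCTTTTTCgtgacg
Rps18: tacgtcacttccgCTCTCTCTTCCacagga
Rps27: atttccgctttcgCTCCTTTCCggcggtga
Rpl10: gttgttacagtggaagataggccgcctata
Rpl3l: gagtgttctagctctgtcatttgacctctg
Rps27l: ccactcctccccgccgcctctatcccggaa

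The tract was found in 23 of the 62 genes, or 37.1%, against 10.7% of 27025 genes in the same table. It opened near a start in 30.8% of large subunit and 47.8% of small subunit genes. Short motifs were then searched on both strands of the stretch from 250 bases before to 50 bases after the start. The letters CCGGAAG, the core bound by ETS factors, stood in 40.3% of ribosomal protein genes and 9.93% of all genes. GGGCGG, the GC box, stood in 61.3% against 38.2%, and AAGATGG, the YY1 core, in 16.1% against 7.28%. TATAAA, the TATA box, stood in 11.3% against 15.7%. These matches describe the letters and are not evidence of binding, and annotated starts need not be the ones used in BAT.

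Each mouse gave 2017697 to 3115956 counts, of which 38.4% to 45.6% fell on mitochondrially encoded genes. Pnpla2, the targeted gene, lay at 2701 to 3152 CPM (counts relative to the TMM-scaled library size) in WT mice and at 403 to 531 CPM in ATGLKO mice, a log2 fold change of -2.62 ± 0.17 (SE). Whether the counted bases lie inside the deleted part is not stated. All 7 tested macrophage markers rose, and their summed level with the untested marker went from 85.8 to 125 CPM in WT mice to 823 to 1332 CPM in ATGLKO mice. Of 5 stromal markers 4 rose, and their sum went from 280 to 352 CPM in WT mice to 636 to 1073 CPM in ATGLKO mice. Of 4 endothelial markers 0 passed the test, and their sum ran from 122 to 154 CPM and from 166 to 176 CPM, without overlap. Of 7 brown adipocyte markers 1 rose and 3 fell, and Ucp1 did not pass the test. In bulk tissue, fewer cells of a type and less RNA per cell cannot be told apart. The part of these shifts in the values given here was not tested.

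Between the genotypes, nearly every ribosomal protein mRNA differed by too little to be told from the spread between mice. Among 80 members with enough counts to test, 1 was higher in ATGLKO mice at an adjusted p under 0.05 by edgeR's quasi-likelihood test, Rpl10, and 0 were lower. In the same fit 13.3% of all 8930 tested genes were higher and 7.63% were lower. At an unadjusted p under 0.05, 10 members were higher and 1 was lower, against backgrounds of 18.3% and 14.3%. The 4 values of each genotype did not overlap for 5 members, all higher in ATGLKO mice, where 14.4% of all tested genes did so, and for 0 members in the other direction, where the share was 9.37%.

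The intervals bound how large a difference these 8 mice could hide. For 76 of the 80 members the 95% interval of the log2 fold change lay within -1 to 1, that is, within a doubling or halving, compared with 60% of all tested genes. The median standard error was 0.19 for members and 0.25 for all genes. Log2 fold changes beyond 0.5 in either direction were estimated for 5 members, beside 34.6% of all tested genes. Rpl39l, a member with few counts, was the 1 member beyond 1, where 12.8% of all tested genes lay.

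**Figure D1:**
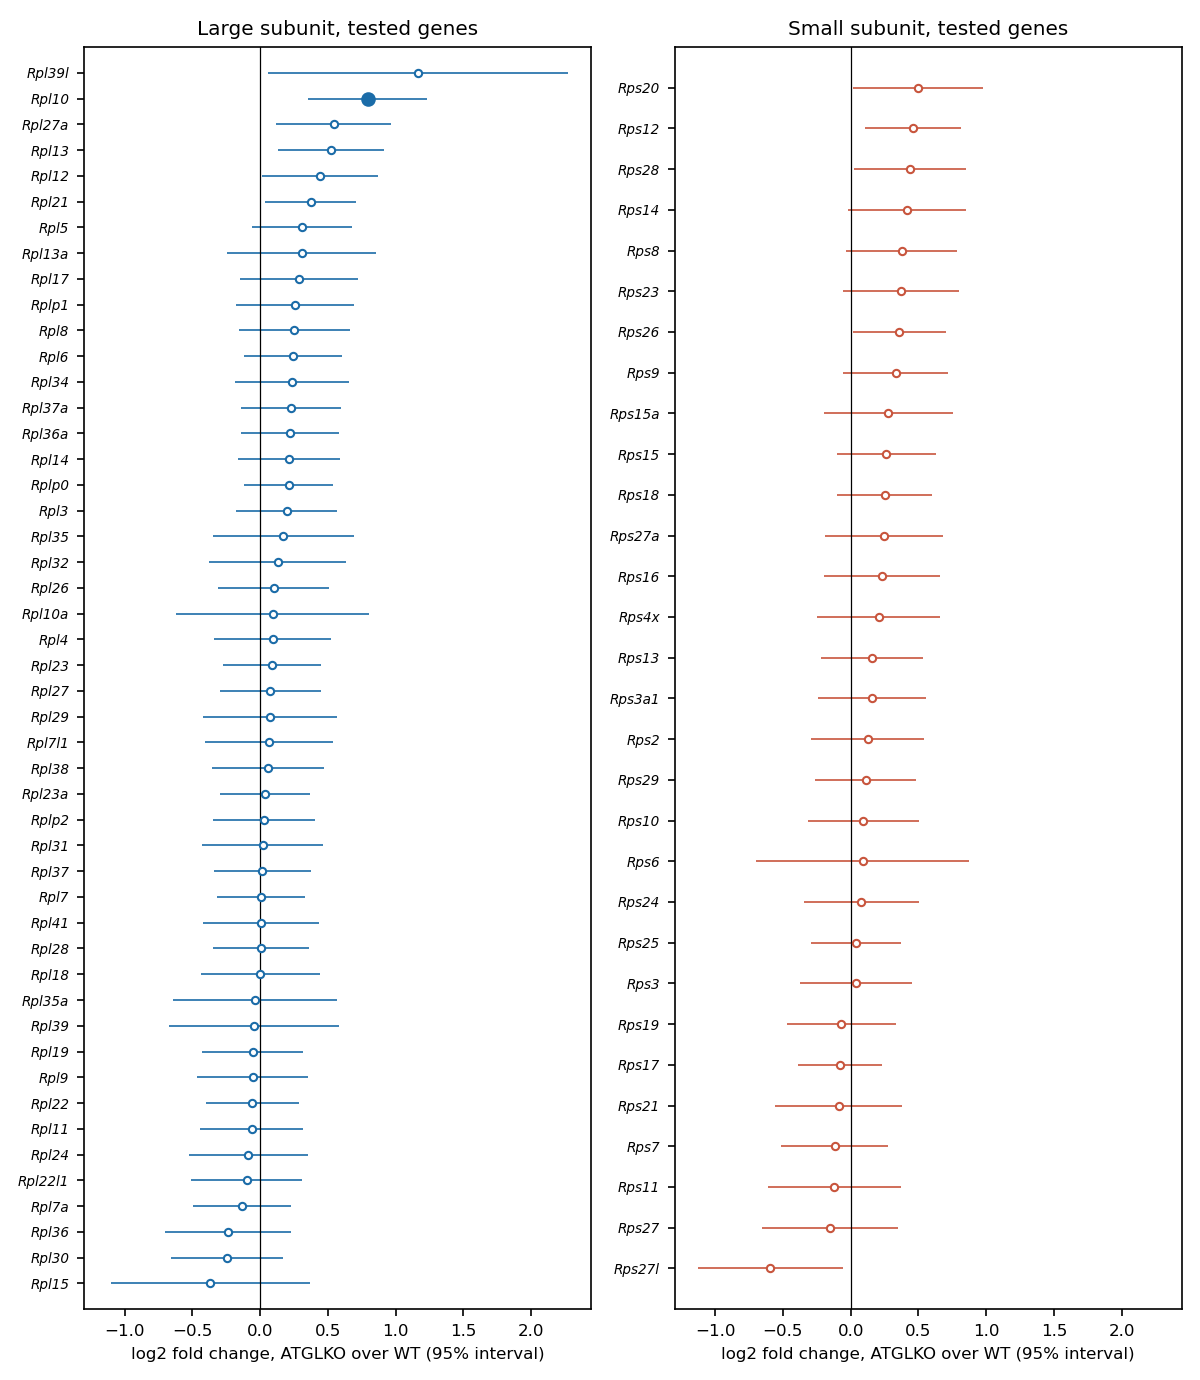
Log2 fold change of ATGLKO over WT for the tested large subunit (left, blue) and small subunit (right, red) genes that are reported here, with points for estimates and bars for 95% intervals from edgeR (4 mice per genotype). The filled point is Rpl10 at 0.79, the member with an adjusted p under 0.05, and most other intervals span 0.

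The centre of the distribution lay slightly above 0. The median log2 fold change was 0.10 over the 80 members, with quartiles of 0.0035 and 0.26, and -0.01 over all tested genes, with quartiles of -0.32 and 0.37. Of the members 61, or 76.2%, lay above 0 and 19 below, beside 49.3% of all tested genes above 0. Genes that share regulation and libraries are not independent, so these counts are given without a test. The median log2 CPM over members in each mouse averaged 7.47 in WT mice and 7.70 in ATGLKO mice, 0.22 apart. The pooled SD of this median between mice of the same genotype was 0.27. This SD describes single mice and is not the error of the difference between the means.

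**Figure D2:**
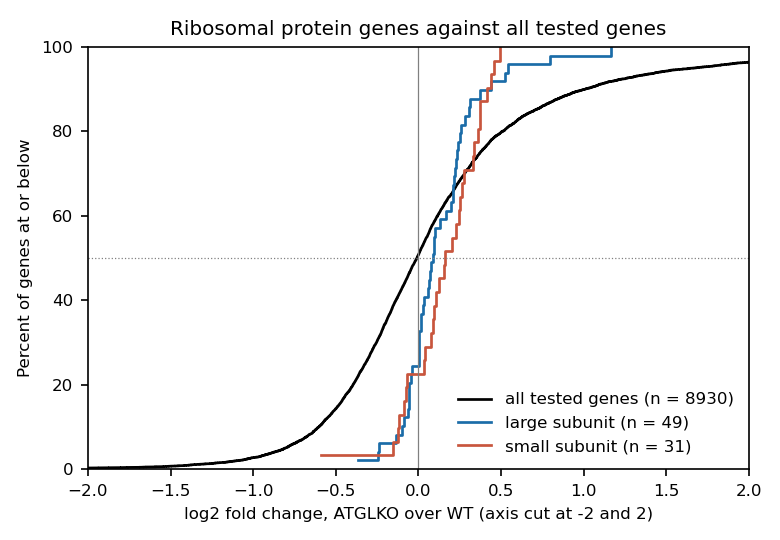
Cumulative percent of genes (vertical axis) at or below each log2 fold change of ATGLKO over WT (horizontal axis, shown from -2 to 2) for all 8930 tested genes (black), 49 large subunit genes (blue) and 31 small subunit genes (red). The ribosomal protein curves are steeper than the curve of all genes and cross 50% at 0.09 and 0.16.

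The number of members called depended on how libraries were scaled. TMM, the scaling used throughout, put the median of all genes at -0.01. Scaling by total counts alone moved that median to 0.13 and called 8 members higher, and scaling by totals without mitochondrial genes moved it to 0.12 and called 12 higher. These are 10% and 15% of members, beside 16.6% and 16.2% of all genes called higher under the same scalings. Neither called a member lower. Relative to the median of all genes, the median member stood at 0.11 with TMM, 0.11 with total counts and 0.12 with totals without mitochondrial genes. The calls over all genes were 63.6% upward with TMM, 78.5% with total counts and 77.7% with totals without mitochondrial genes.

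Rpl10 encodes a large subunit protein that is among the last to join and is needed for the subunit to become active. Its gene lies on the plus strand at chrX:74270812-74273135 (mm10). Rpl10 stood at 16.3, 27.3, 31.1 and 26.8 CPM in WT mice 1 to 4 and at 50.9, 46.7, 37.6 and 42.1 CPM in ATGLKO mice 1 to 4. Every ATGLKO mouse was above every WT mouse, with WT mouse 1 the lowest. The means were 25.4 ± 6.33 and 44.3 ± 5.76 CPM (SD, n = 4 each), a log2 fold change of 0.79 ± 0.21 (SE), with a 95% interval from 0.36 to 1.23 and an adjusted p of 0.0119 in edgeR. Over 17 alternative settings the log2 fold change ran from 0.63 to 0.94, and the adjusted p stayed under 0.05 in all of them.

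The gene of origin of the Rpl10 reads is uncertain. Rpl10 drew 721 counts over the 8 mice. Of the 75-base windows of its main transcript, 84.9% also occur in transcripts of 11 other genes, 10 of them pseudogenes, and 100% of the last 300 windows do. How reads matching several genes were counted is not given in the sources used here. The copy Rpl10-ps3, which is annotated as protein coding and was counted separately, had 4, 21, 15 and 11 counts in WT mice and 16, 17, 12 and 12 in ATGLKO mice, with a log2 fold change of -0.07 ± 0.37. With its counts added, Rpl10 ran from 18.4 to 36.7 CPM in WT mice and from 42.6 to 56.6 CPM in ATGLKO mice, still without overlap.

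The next 3 members by adjusted p missed the threshold and are named because they were closest to it, after their values were seen. Rpl13, a large subunit protein, had 280, 402, 337 and 240 CPM in WT mice and 519, 437, 462 and 391 CPM in ATGLKO mice. The groups overlapped through WT mouse 2 and ATGLKO mouse 4, and the log2 fold change was 0.52 ± 0.18 with an adjusted p of 0.0554. Rps12, a small subunit protein, had 423, 531, 434 and 434 CPM in WT mice and 657, 713, 642 and 493 CPM in ATGLKO mice. The same pair of mice overlapped, with a log2 fold change of 0.46 ± 0.17 and an adjusted p of 0.064. Rpl27a, a large subunit protein, had 207, 229, 251 and 134 CPM in WT mice and 339, 277, 331 and 252 CPM in ATGLKO mice. Its groups just failed to overlap, and the log2 fold change was 0.54 ± 0.20 with an adjusted p of 0.0658. Across the 17 alternatives Rpl13 passed in 6, Rps12 in 7 and Rpl27a in 4, and the direction was upward for all of these genes in every setting. Of the 75-base windows in their last stretch, 86% of Rpl13 and 95.3% of Rps12 windows occur in other transcripts, against 0% of Rpl27a windows. Over the whole main transcript the shares were 79.6% for Rpl13, 82.4% for Rps12 and 34.4% for Rpl27a.

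Besides Rpl10 and Rpl27a, the members without overlap included Rpl21 and Rps26. Rpl21 ran from 169 to 224 CPM in WT mice and from 231 to 274 CPM in ATGLKO mice, a log2 fold change of 0.37 ± 0.16 with an adjusted p of 0.111. Rps26, which lines the path by which mRNA leaves the small subunit, ran from 526 to 589 CPM and from 608 to 857 CPM, with 0.36 ± 0.16 and an adjusted p of 0.13. Neither passed the test in this fit. Rps26 passed in 2 of 17 alternatives, total counts (0.50, adjusted p 0.0407) and totals without mitochondrial genes (0.49, adjusted p 0.0372).

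**Figure D3:**
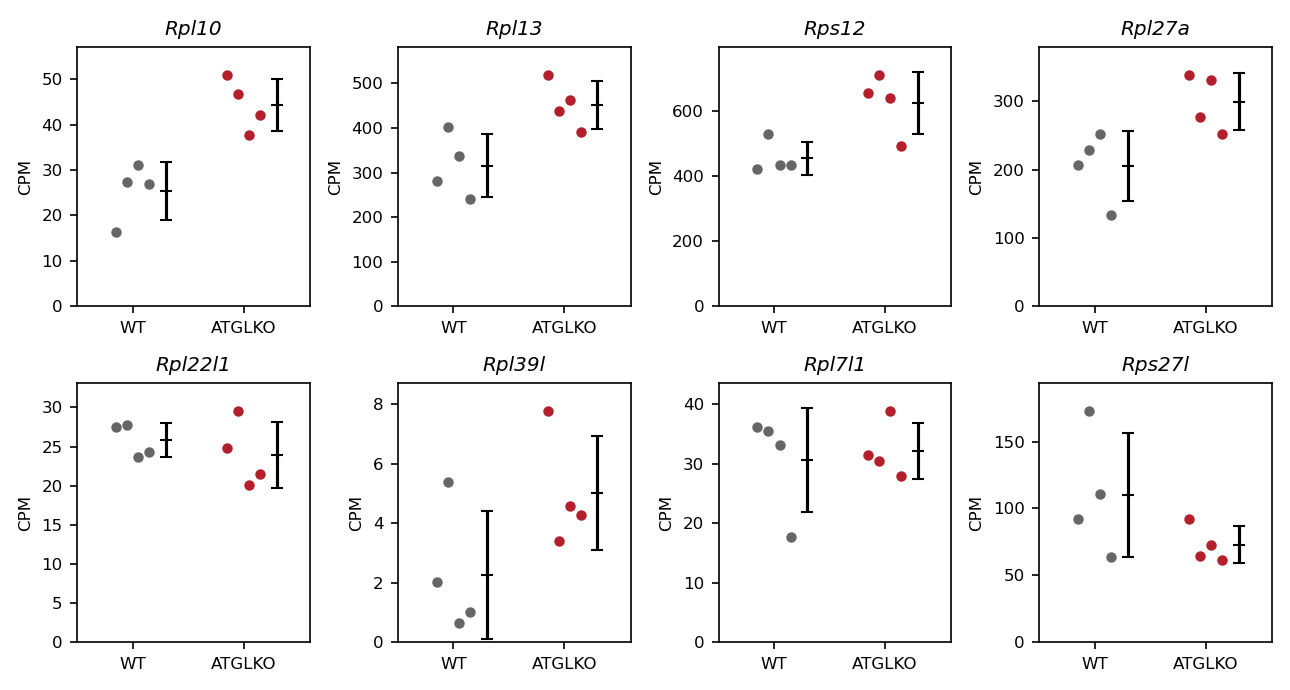
Level in CPM (vertical axes, from 0) of 8 ribosomal protein genes in each WT (grey) and ATGLKO (red) mouse, with the mean ± SD of 4 mice beside the points. The top row shows Rpl10 and the 3 members nearest to the threshold, and the groups of Rpl10 and Rpl27a do not overlap. The bottom row shows paralogs, whose groups overlap.

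The subunits were then set side by side. The median log2 fold change was 0.09 over 49 large subunit genes, with 37 above 0, and 0.16 over 31 small subunit genes, with 24 above 0. The difference of 0.07 between these medians kept its sign in 17 of 17 alternatives, from 0.05 to 0.15. The alternatives re-use the same mice and genes, so the kept sign is not independent support. The large subunit median itself moved more: it was -0.02 without WT mouse 4 and 0.21 without WT mouse 2, and relative to all genes it was above 0 in 15 of 17 alternatives. Within each mouse, the subunits were also compared by the median deviation of their members from each gene's mean over the 8 mice. On this measure the small subunit minus the large subunit ran from -0.07 to 0.04 in WT mice and from -0.08 to 0.06 in ATGLKO mice, with means of -0.01 and -0.02 (SD 0.05 and 0.06, n = 4 each). By median log2 CPM, without centring each gene, the gap ran from 0.14 to 0.36 in WT mice and from 0.27 to 0.42 in ATGLKO mice. The mean gap was thus not larger in ATGLKO mice on the first measure, and was 0.21 in WT and 0.36 in ATGLKO mice on the second. The genotypes overlapped on both measures, and no test was made. The extremes came from the large subunit at the top, Rpl39l and Rpl10, and from the small subunit at the bottom, Rps27l at -0.59.

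Members were also read by their place in the ribosome, in groups written after the values were known. The stalk, which recruits elongation factors, is made of Rplp0, Rplp1 and Rplp2 on a base of Rpl12. Rplp1, the member with the most counts, had 1087, 1430, 1356 and 773 CPM in WT mice and 1601, 1505, 1355 and 1096 CPM in ATGLKO mice, with a log2 fold change of 0.26 ± 0.20 (adjusted p 0.416). Its groups overlapped: WT mouse 4 was the lowest, and ATGLKO mice 3 and 4 fell among the WT values. Rplp0, often used as a reference gene in qPCR, gave 0.21 ± 0.15 (adjusted p 0.377). Rplp2 gave 0.03 ± 0.18 (adjusted p 0.932) and Rpl12 gave 0.44 ± 0.20 (adjusted p 0.139).

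Rpl5 and Rpl11 form a particle with 5S rRNA, which also restrains Mdm2 when ribosome assembly fails. Rpl5 had 36.7, 37.2, 36.1 and 45.6 CPM in WT mice and 45.3, 58.2, 46.8 and 42.1 CPM in ATGLKO mice, a log2 fold change of 0.31 ± 0.17 (adjusted p 0.233). Rpl11 lay the other way at -0.06 ± 0.18 (adjusted p 0.847), and its sign differed between settings. The interval for Rpl5 ran from -0.06 to 0.68 and that for Rpl11 from -0.44 to 0.32, and neither gene passed the test.

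Rps14, Rps26 and Rps28 stand at the mRNA exit of the small subunit. These 3 estimates ran from 0.36 to 0.44 and were above 0, as were 76.2% of members. At an unadjusted p under 0.05 stood 2 of them, where 12.5% of members and 18.3% of all tested genes were higher. The group was written after its values were known, and 0 passed the adjusted threshold. Rps14, the member with the second most counts, had 835, 759, 1026 and 592 CPM in WT mice and 1072, 1186, 1271 and 749 CPM in ATGLKO mice. Its groups overlapped through ATGLKO mouse 4, and the log2 fold change was 0.41 ± 0.20 (adjusted p 0.175). Rps2 and Rps3 at the mRNA entry gave 0.13 and 0.04. Rps23 and Rps15, near the decoding site and the head, gave 0.37 and 0.26.

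The exit tunnel is lined by Rpl4, Rpl17 and Rpl39, whose estimates ran from -0.04 to 0.29. Around its rim, where nascent chains meet targeting factors, Rpl19, Rpl23a, Rpl26, Rpl31 and Rpl35 ran from -0.06 to 0.17. None of these 8 reached an unadjusted p under 0.05, where 18.3% of all tested genes were higher and 14.3% were lower. A set of 9 members known for mutations in Diamond-Blackfan anaemia, among them Rps19, Rps24 and Rpl35a, had a median of -0.04 with 4 above 0 and 1, Rps26, at an unadjusted p under 0.05.

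Rps6, the substrate of S6 kinase downstream of mTOR, could be judged least well among core members. It had 11, 17, 17 and 17 counts in WT mice and 37, 19, 15 and 8 counts in ATGLKO mice. ATGLKO mouse 1 was the highest and ATGLKO mouse 4 the lowest of all 8, and the log2 fold change was 0.09 ± 0.37 (95% interval -0.70 to 0.88). Its sign turned without ATGLKO mouse 1, at -0.37. Of its last windows 86% are shared with other transcripts, and 11 pseudogenes hold such windows. Rps20, another small subunit protein, was among the 5 members with the most counts and gave 0.50 ± 0.23 (adjusted p 0.139) over groups that overlapped. It passed in 1 of 17 alternatives, totals without mitochondrial genes (0.64, adjusted p 0.0334).

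For most members the range over mice of the same genotype was wider than the estimated difference between genotypes. For 68 of the 80 members the size of the log2 fold change was smaller than the range within WT mice and also smaller than the range within ATGLKO mice. The median range was 0.68 in WT mice and 0.53 in ATGLKO mice on the log2 scale of CPM plus 1, and the median size of the fold change was 0.16. A range over 4 mice and a difference between means are unlike measures, so this is no test of the difference. The same share over all tested genes was not computed. The members moved together from mouse to mouse. Within WT, mouse 2 had the highest value for 60 of the 80 members and mouse 4 the lowest for 56, and within ATGLKO, mouse 1 had the highest for 49 and mouse 4 the lowest for 68.

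The 82 genes together took 1.77%, 2.07%, 1.93% and 1.43% of all counts in WT mice 1 to 4 and 2.40%, 2.45%, 2.26% and 1.85% in ATGLKO mice 1 to 4. ATGLKO mouse 2, rather than mouse 1, had the largest share. WT mice 2 and 3 were above ATGLKO mouse 4, and the other 3 ATGLKO mice were above every WT mouse. The means were 1.80 ± 0.27% and 2.24 ± 0.27% (SD, n = 4 each). Shares of raw counts are not TMM scaled: after that scaling the summed level was 19044 ± 3022 CPM in WT mice and 21545 ± 2675 CPM in ATGLKO mice, a ratio of 1.13. Leaving out each mouse in turn kept the difference in shares between 0.31 and 0.57 percentage points.

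**Figure D4:**
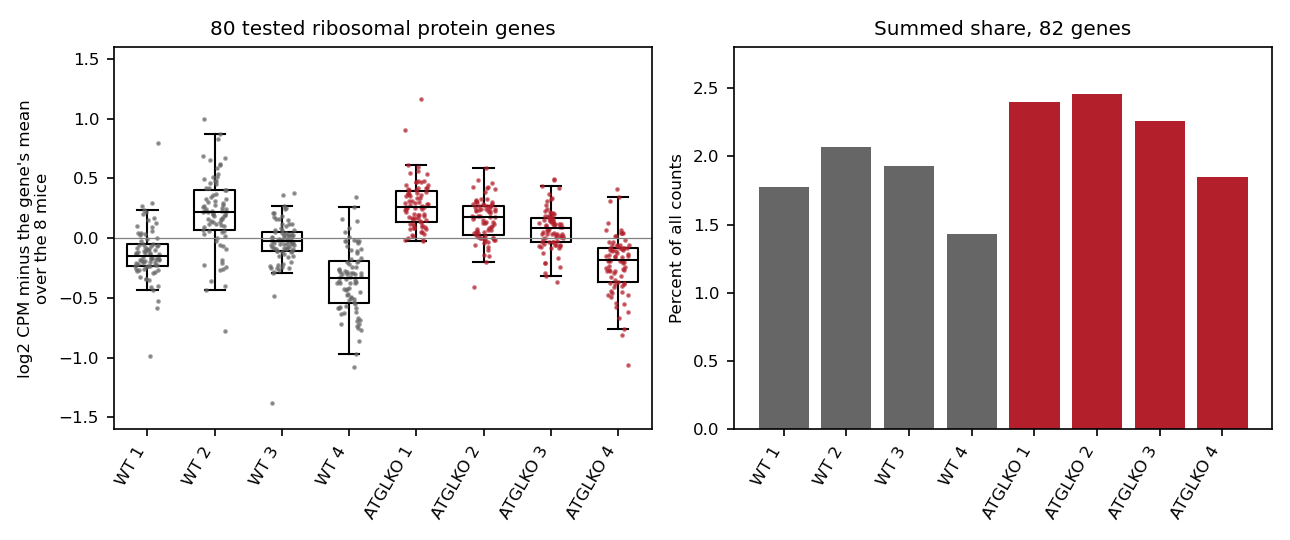
Left, log2 CPM of each of the 80 tested members in each mouse minus that gene's mean over the 8 mice (points, with boxes for median and quartiles and whiskers to 1.5 times the interquartile range). Right, percent of all counts in each mouse that fell on the 82 members, with WT mouse 4 at 1.43% and ATGLKO mouse 2 at 2.45% as the extremes. WT mouse 4 and ATGLKO mouse 4 sit low within their genotypes.

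Other values moved with the mice. Mouse 4 of each genotype had the largest mitochondrial share of its genotype, 45.6% in WT and 42.6% in ATGLKO, and mouse 4 was also lowest in the median member of each genotype. In WT mice the summed brown adipocyte markers were 9312, 13923, 12231 and 6304 CPM, the same order as the median members of the 4 mice. In ATGLKO mice they were 7064, 4214, 6311 and 5870 CPM, which is not the order of their ribosomal protein genes. The part of mitochondrial share or of cell makeup in the ribosomal protein levels was not tested.

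Of the 4 tested paralogs, Rpl7l1, Rpl22l1, Rpl39l and Rps27l, 0 passed the test. Rpl22l1, an alternative to Rpl22, had 27.5, 27.8, 23.7 and 24.3 CPM in WT mice and 24.8, 29.6, 20.1 and 21.5 CPM in ATGLKO mice. The values overlapped fully, with a log2 fold change of -0.10 ± 0.19 (adjusted p 0.768), beside -0.06 ± 0.16 for Rpl22. Rpl7l1, a nucleolar relative of Rpl7, gave 0.07 ± 0.22 (adjusted p 0.87), beside 0.01 ± 0.15 for Rpl7. Rps4x, the X-linked small subunit member, gave 0.21 ± 0.21 (adjusted p 0.55) and Rpl3 gave 0.20 ± 0.18 (adjusted p 0.483).

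Rps27l, a p53-inducible relative of Rps27, had the lowest estimate of all. It stood at 91.8, 173, 111 and 63.8 CPM in WT mice and 92.3, 64.7, 72.7 and 61.8 CPM in ATGLKO mice. WT mice 2 and 3 were above every ATGLKO mouse, and WT mice 1 and 4 fell among the ATGLKO values. The log2 fold change was -0.59 ± 0.25 with a 95% interval from -1.13 to -0.05 and an adjusted p of 0.115. Without WT mouse 4 it was -0.79 with an adjusted p of 0.0188, and with a filter that kept every gene with a count it was -0.62 with an adjusted p of 0.0238. Without WT mouse 2 it shrank to -0.30 with an adjusted p of 0.322. It was negative in 17 of 17 alternatives and passed in 2 of them. Its partner Rps27 gave -0.15 ± 0.23 (adjusted p 0.702).

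Rpl39l, the germ line paralog of Rpl39, was the tested member with the fewest counts. It had 4, 12, 2 and 2 counts in WT mice and 22, 11, 11 and 10 counts in ATGLKO mice. WT mouse 2, at 5.38 CPM, was above 3 of the 4 ATGLKO mice, and the other WT mice were below all of them. The log2 fold change was 1.16 ± 0.52, with an interval from 0.055 to 2.27 and an adjusted p of 0.133. Without WT mouse 2 it was 2.05 with an adjusted p of 0.0124, and limma with quality weights gave 1.74 with an adjusted p of 0.0251. It passed in these 2 of the 16 alternatives in which it was tested, over a range from 0.78 to 2.05. Rpl39 itself gave -0.04 ± 0.30 (adjusted p 0.941). None of the 75-base windows of Rpl39l occurs in another gene's transcript.

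A pair of paralogs fell below the filter. Rpl10l, the testis paralog of Rpl10, was listed at 0 in every mouse, where 3 counts would correspond to 0.933 to 1.53 CPM. Rpl3l, the muscle paralog of Rpl3, had 17, 1, 3 and 9 counts in WT mice and 10, 36, 0 and 9 counts in ATGLKO mice. High and low mice occurred in each genotype. Mean levels were 3.67 and 4.65 CPM, and a two-sided exact permutation test of the difference gave p = 0.743, where 0.0286 is the smallest value that 4 against 4 mice allow.

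Rpl3l and the skeletal muscle markers were high and low in the same mice. The summed level of 8 muscle markers, which include Acta1 and Ckm, was 1355, 98.6, 19.7 and 649 CPM in WT mice and 253, 1767, 56.0 and 825 CPM in ATGLKO mice. The mice with the highest Rpl3l, ATGLKO mouse 2 and WT mouse 1, were the highest for muscle, and the 3 mice under 2 CPM of Rpl3l, WT mice 2 and 3 and ATGLKO mouse 3, were the 3 lowest. Of the 7 tested muscle markers 0 passed the test by genotype, and 0 had an unadjusted p under 0.05. The source of the muscle RNA was not tested.

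**Figure D5:**
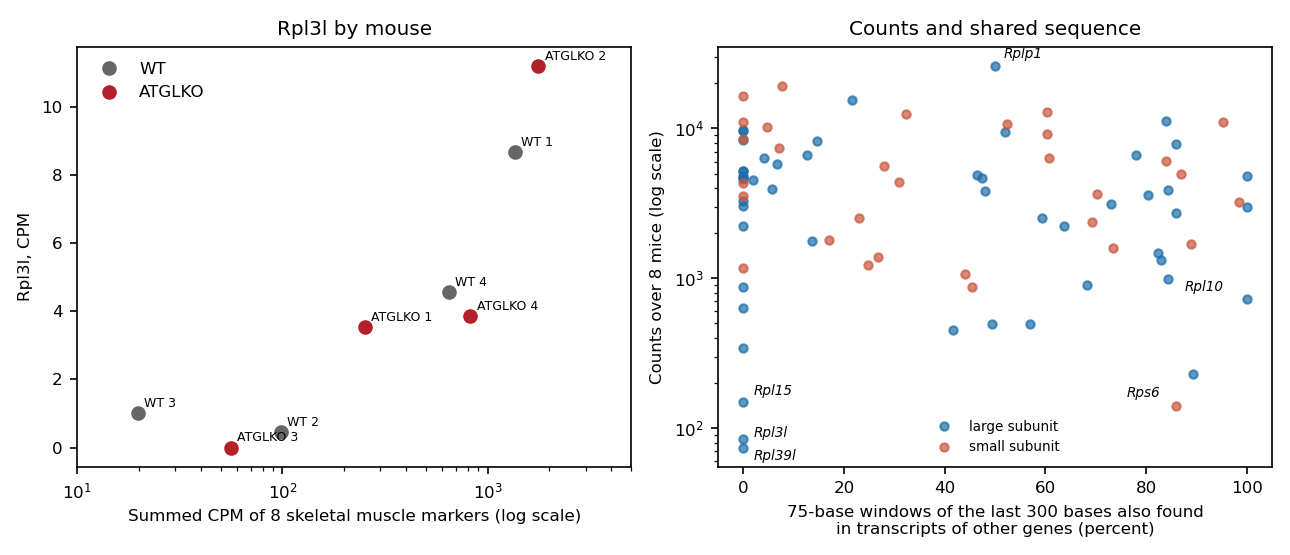
Left, Rpl3l in CPM against the summed CPM of 8 skeletal muscle markers (log scale) for each of 8 mice, WT grey and ATGLKO red, with ATGLKO mouse 2 and WT mouse 1 at the top right. Right, counts over 8 mice (log scale) of each member with a count against the percent of the last 75-base windows of its main transcript that occur in transcripts of other genes, large subunit blue and small subunit red.

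Levels differed widely among members even though their proteins are made in nearly equal numbers. The 5 with the most counts were Rplp1, Rps14, Rps20, Rplp2 and Rps26, which together held 22% of the 410425 counts on members. Per kilobase of the main transcript, Rplp1 was highest at 2556 CPM per kilobase, followed by Rps29 at 1575 and Rps14 at 1193. The median was 144 CPM per kilobase for large subunit genes and 341 for small subunit genes. These values depend on the transcript chosen. Rps20, at rank 3 by counts, stood at rank 37 per kilobase with a main transcript of 3706 bases. Whether the main transcripts are the ones expressed in BAT was not tested. Whether counts grow with transcript length in this kit is not given in the sources used here.

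Shared sequence is common in this family and differs between its members. None of the last windows was shared in 24 members, and more than 99% were in 3, Rpl10, Rpl9 and Rpl36a. Median counts over 8 mice were 3952 in the members with none shared, 4597 with up to 50%, 3245 with 50% to 99% and 2979 in the 3 above. The core members with the fewest counts were Rpl15, at 150 with 0% of the last windows shared, and Rps6, at 141 with 86%. Over the whole main transcript 29.3% of Rpl15 and 84.1% of Rps6 windows were shared. The counting of multi-mapped reads is not given, so few counts need not mean low expression. Median log2 fold changes over these classes were 0.22, 0.12, 0.09 and 0.22.

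Some ribosomal proteins have names outside the symbol pattern. Of these, Rpsa, Fau, Rpl36al and Rack1 were tested, and 0 rose and 0 fell, with 0 at an unadjusted p under 0.05. Rpsa, the small subunit protein also known as the laminin receptor, gave 0.23 ± 0.17 (adjusted p 0.372). Rack1, a scaffold on the small subunit head, gave 0.25 ± 0.21 (adjusted p 0.435), and passed in 1 of 17 alternatives, without WT mouse 2 (0.49, adjusted p 0.0382). Fau, a small subunit protein made as a fusion with a ubiquitin-like protein, gave 0.05 ± 0.17 (adjusted p 0.88), and Rpl36al gave 0.04 ± 0.20 (adjusted p 0.919).

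Genes that act beside the ribosome came from lists by function. Their counts stand beside 13.3% of all tested genes higher and 7.63% lower in the same fit. At an unadjusted p under 0.05 these shares were 18.3% and 14.3%. Of 9 elongation factors tested 0 rose and 0 fell, and 0 had an unadjusted p under 0.05. Of 35 initiation factors 1 rose and 1 fell: Eif4g3, a scaffold of the cap-binding complex, at 1.04 ± 0.24 (adjusted p 0.00558), and Eif4h, a helper of the helicase Eif4a, at -0.73 ± 0.19 (adjusted p 0.0105). Of 7 other TOP mRNAs 2 rose. Vim, an intermediate filament of mesenchymal cells and macrophages, went from 273 to 515 CPM in WT mice to 722 to 972 CPM in ATGLKO mice, and Nap1l1, a histone chaperone, gave 0.78 ± 0.23 (adjusted p 0.0226). The others, among them Pabpc1 and Tpt1, did not pass the test.

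Of 47 ribosome biogenesis genes 3 rose and 1 fell. Both are smaller shares than the 13.3% higher and 7.63% lower among all tested genes. Nop56, a core protein of box C/D particles that guide rRNA methylation, ran from 10.3 to 15.2 CPM in WT mice and from 22.3 to 25.9 CPM in ATGLKO mice, a log2 fold change of 0.89 ± 0.20 (adjusted p 0.00468). Rrp12, a pre-ribosome export factor, gave 1.03 ± 0.30 (adjusted p 0.022), and Tcof1, which supports rRNA transcription, gave 0.71 ± 0.22 (adjusted p 0.0311). Nop10, a box H/ACA protein that serves rRNA pseudouridylation, went the other way at -0.84 ± 0.18 (adjusted p 0.00341). Of 10 regulators of TOP mRNAs, 1 fell: Tial1, an RNA-binding protein of stress granules, at -0.63 ± 0.21 (adjusted p 0.0419). Over 17 alternatives Tial1 passed in 7, Tcof1 in 9 and Nap1l1 in 13, while Nop56, Nop10, Vim, Eif4g3 and Eif4h passed in all. Rrp12 passed in 13 of the 16 in which it was tested. The median log2 fold changes of these lists were 0.04 for elongation factors, -0.16 for initiation factors, 0.12 for other TOP mRNAs, 0.02 for biogenesis and -0.17 for TOP regulators, beside -0.01 for all tested genes.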

How the data were processed

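Total RNA of BAT from 8 mice was sequenced as a digital mRNA library, single-end, 75 cycles. The authors deposited whole-number counts per Ensembl gene without normalization, 1 column per mouse. The study's methods describe trimming with bbduk, alignment to mm10 with STAR and counting with HTseq-counts, whereas the submitters' processing notes list Trimmomatic, HISAT2 and DESeq2 with GRCm38 and mm10. Use of strand, annotation release and multi-mapped reads are not given in the sources used here. The deposited normalized values were not used here.

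Symbols (30934 of 31053 identifiers) and transcripts came from GENCODE M21, and start sites from RefSeq. The main transcript of a gene was its longest protein-coding transcript, with those annotated as principal preferred. Length per kilobase and the last windows were taken from it. The members and lists were chosen with earlier results of these data known, and the role groups after their values were seen. Genes were filtered with filterByExpr, which left 8930, scaled by TMM and compared between genotypes with the quasi-likelihood test of edgeR 4.0.16 (R 4.3.3). P-values were adjusted over all tested genes by Benjamini-Hochberg, with a threshold of 0.05. Standard errors are the size of the log2 fold change over the square root of F. Levels in CPM divide by library sizes after TMM, and a prior count of 2 was added for log2 CPM. Alternatives used limma 3.58.1, DESeq2 1.42.0, other scalings and filters, a replicate block, and each mouse left out. The fit was tested on simulated data. Named genes were up to 8 members that passed in each direction (1 did), the 5 with most counts, paralogs and partners, stalk genes, Rps6, Rpl5, Rpl11, ribosomal proteins outside the pattern, and up to 3 per direction in each translation list. Rpl13, Rps12, Rpl27a, Rpl21 and members named by role were added after their values were seen.

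Same-numbered mice are different animals, so numbers did not pair them. Mice of one genotype differed by more than sampling noise (chi-square per degree of freedom 3.76 to 16.8). Depth of 2017697 to 3115956 counts per mouse limits members with few counts. Counting floors cover counting error only. A few items are not reported here.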

Additional observations from a re-analysis of the deposited data

Results flagged for a closer look

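In 76 groups of 4 mice (the named genes, each genotype apart), the mouse farthest from the others was compared with the range of its group, and 4 groups exceeded Dixon's 95% critical value, where chance alone gives about 3.8. Rpl7l1 was low in WT mouse 4, at 17.7 CPM against 33.1 to 36.2 CPM in the other 3 (gap of 0.871 of the range). Rpl5 was high in WT mouse 4, at 45.6 CPM against 36.1 to 37.2 CPM (0.87). Rps12 was high in WT mouse 2, at 531 CPM against 423 to 434 CPM (0.888). Rpl36al was high in ATGLKO mouse 1, at 78.2 CPM against 53.9 to 56.2 CPM (0.887).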

How the results depend on the processing

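Of 37 named genes in the fit, 14 kept their direction and their side of the threshold in every alternative, Rpl10 among them. The members higher in ATGLKO mice numbered 8 with total counts, 12 with totals without mitochondrial genes, 4 under a minimum of 10 counts per mouse, 3 with DESeq2's Wald test (81 members tested), 4 with limma, 2 with the replicate block, and 1 to 5 with a mouse left out, highest without WT mouse 2 (Rpl10, Rpl12, Rpl13, Rpl39l, Rps12). It was 1 with DESeq2 size factors, with TMM without the members and with a filter of 1 count in any mouse. Members lower numbered 1 with that filter and 0 to 1 with a mouse left out, in each case Rps27l. The median member relative to all genes ran from -0.0019 to 0.24 and was negative only with that filter. In every setting members called higher were a smaller share than all tested genes called higher. Shares were 5.19% of members and 10.8% of all genes under the minimum of 10 counts, and 3.7% and 10.5% with the Wald test. They were 5% and 14.9% with limma, 2.5% and 12.7% with the replicate block, and 6.25% and 13.9% without WT mouse 2.

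Genes of the lists that fell, 3 in the fit reported, numbered 5 with DESeq2 size factors, 5 with the filter of 1 count, 5 with DESeq2's Wald test, 6 with limma and 2 to 6 with a mouse left out, and those that rose numbered 3 to 6, lowest without ATGLKO mouse 1. Among all genes, those lower numbered 404 with total counts, 415 with totals without mitochondrial genes, 449 under the minimum of 10 counts and 400 to 851 with a mouse left out, lowest without ATGLKO mouse 2, and those higher 746 under that minimum. The difference in summed share was 0.73 percentage points when mitochondrial genes left the denominator, which makes every share larger, and the ratio of the genotypes was 1.24 either way. For the other changes the cause was not tested, except that filters change which genes are tested.

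The genes whose sign turned had estimates smaller in size than their standard errors in the fit reported. The largest of these in size was Rps27, at -0.15 ± 0.23. With total counts Rpl22l1 was 0.044, Rpl22 0.082, Rpl39 0.10 and Rpl11 0.078, and with totals without mitochondrial genes 0.033, 0.077, 0.10 and 0.070 in that order. With a minimum of 10 counts Rpl22 was 0.014, Rpl39 0.033 and Rpl11 0.0092. Rpl7 was -0.011 with DESeq2 size factors, -0.020 with the filter of 1 count and -0.031 with the Wald test. Rplp2 was -0.010 with the Wald test and -0.069 with limma, which also gave Rpl39 0.085 and Fau -0.011. With the replicate block Rpl39 was 0.0019 and Rps6 -0.011, and 1138 genes were higher and 581 lower. That block added Rpl27a and lost Tial1, and the deviations of same-numbered mice correlated at -0.09, -0.20, 0.30 and 0.24. With a mouse left out, Rpl7 ran from -0.056 to 0.060, Rpl36al from -0.097 to 0.22, Rplp2 from -0.10 to 0.12, Rpl39 from -0.22 to 0.33, Rps27 from -0.28 to 0.080, Rpl11 from -0.14 to 0.050, Rps6 from -0.37 to 0.31, Rpl7l1 from -0.13 to 0.14 and Fau from -0.025 to 0.16.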
